A study of Mus musculus with 384 samples.

Results

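The myeloid cytokine receptor genes described here are Csf2ra, Il3ra, Csf2rb, Csf2rb2, Csf3r, Csf1r, Flt3, Il6ra, Il6st and Il1r1, chosen by name as 10 of the 46078 genes counted in the series. They were followed in granulocyte/macrophage progenitors (GMPs), the marrow precursors of neutrophils and monocytes, sorted one per well as lin-/c-Kit+/Sca-1-/CD34+/FcγR+ cells and sequenced with SMART-seq2, a full-length single-cell RNA-seq method. The BCR-ABL group holds 3 sets of 96 wells, numbered 1, 2 and 4, from C57Bl/6 mice of the Scl-tTA::TRE-BCR/ABL model, in which BCR-ABL, the fusion oncogene of chronic myeloid leukaemia, is switched on when doxycycline is withdrawn. It is set against 1 Control set of 96 wells. For all sets the labels list this mouse model, breeding on 20 mg/L doxycycline, induction at an age of 5 weeks, and analysis after a further 5 to 6 weeks. They do not say which alleles the Control mice carried or whether the sets are separate animals. The Scl promoter element drives the transgene in stem and progenitor cells, so the transgene is not limited to GMPs.

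Of 384 wells, 323 were kept, each with 50000 or more reads on genes and 1000 or more genes detected: 76, 61 and 92 cells in BCR-ABL sets 1, 2 and 4, and 94 cells in the Control set. Their summed depth was between 121378632 and 140995697 reads on genes per set, and a kept cell had between 50434 and 4758711. Xist, a sex-linked transcript, also separates the sets: it reached 5 CPM (reads of a gene scaled to 1e6 reads on genes) in 75 of 76, 0 of 61 and 3 of 92 cells of BCR-ABL sets 1, 2 and 4, against 94 of 94 Control cells. By Xist, BCR-ABL set 1 was like the Control set and sets 2 and 4 were not, so sex may differ between the sets. The replicate is the set: BCR-ABL against Control compares 3 sums with 1, and cell classes are compared within sets. The p-values measure only the spread between these sets, which may in part be technical. With 1 Control set, its own peculiarities and the condition cannot be told apart. As to the labelled cell type, Kit, Cd34 and the granule genes Elane and Mpo were present in all 4 sets. Markers of other lineages were not absent: eosinophil markers summed to 48.8, 40.1 and 1330 CPM across BCR-ABL sets 1, 2 and 4, against 36.03 CPM in Control, and lymphoid markers to 1287, 1287 and 1420 CPM across the BCR-ABL sets, against 1413 CPM in Control.

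Cytokine receptors tell a progenitor which growth factors it can answer. The receptors for GM-CSF and IL-3 each pair a ligand-binding alpha chain (Csf2ra, Il3ra) with the shared beta chain encoded by Csf2rb, and the mouse has a second beta chain, encoded by Csf2rb2, that serves IL-3 alone. Csf3r is the G-CSF receptor of the neutrophil lineage, Csf1r is the receptor tyrosine kinase for M-CSF in the monocyte lineage, and Flt3 is a related kinase of early and dendritic progenitors. Il6ra binds IL-6 and signals through the shared chain gp130, encoded by Il6st, and Il1r1 is the signalling receptor for IL-1. In GMPs, Irf8 is a transcription factor of the monocyte fate and Gfi1 one of the neutrophil fate.

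The beta chain genes Csf2rb and Csf2rb2 lie on chromosome 15, from 78325752 to 78353847 and from 78282507 to 78305721 (mm10, GENCODE vM21), and their coding sequences are shown because reads from stretches that they share cannot be assigned to either gene. The alignment of 2628 coding bases held 95.2% identical bases. Of all runs of 50 bases in the main Csf2rb transcript, 18.4% also occur in the Csf2rb2 transcript, and 19% of those of Csf2rb2 occur in Csf2rb. For runs of 100 bases these shares were 7.0% and 7.2%. The first line below is the most alike stretch of 60 bases, the same in both genes. The next 2 lines are the least alike ungapped stretch of 60 bases, with the 13 bases that differ in capitals.
Csf2rb and Csf2rb2, shared stretch, chr15:78338834-78338893 (plus strand) and chr15:78294438-78294497 (minus strand): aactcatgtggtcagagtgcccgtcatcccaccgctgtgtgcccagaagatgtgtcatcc
Csf2rb, chr15:78338893-78338952, plus strand: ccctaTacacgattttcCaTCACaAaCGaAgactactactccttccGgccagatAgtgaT
Csf2rb2, chr15:78294379-78294438, minus strand: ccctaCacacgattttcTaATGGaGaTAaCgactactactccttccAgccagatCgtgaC
Both stretches adjoin in the coding sequence. The values of Csf2rb and Csf2rb2 below are therefore uncertain by the reads that the authors' counting could not split.

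Levels were first taken per set, as CPM of the sum over kept cells. Per gene length, as reads per kilobase of exon at equal depth (RPKM), the most abundant receptor was Csf2ra, with 54.2, 47.6 and 47.9 in BCR-ABL sets 1, 2 and 4, against 51.6 in the Control set. On this length-scaled measure Csf3r came next in the BCR-ABL sets with 40.6, 45.6 and 46.3, against 35.7 in the Control set. Csf1r had a length-scaled level of 16.9, 22.8 and 8.76 in the BCR-ABL sets, against 51.4 in the Control set, where it stood beside Csf2ra. Length-scaled levels of Csf2rb (22.4, 24.8 and 19.6) overlapped those of Csf1r in the BCR-ABL sets, and Csf2rb stood at 17.01 in the Control set. In the same order Il6ra had 7.91, 9.89 and 7.30 in the BCR-ABL sets against 14.95 in the Control set, and Il3ra had 9.76, 8.45 and 11.4 against 13.2, so these neighbours overlap. Flt3, Il6st and Csf2rb2 overlapped one another between 0.446 and 6.68 in the BCR-ABL sets, and Il1r1 was the lowest receptor in 3 of the 4 sets, with 0.355, 0.360 and 0.681 in the BCR-ABL sets against 0.310 in the Control set.

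**Figure D1:**
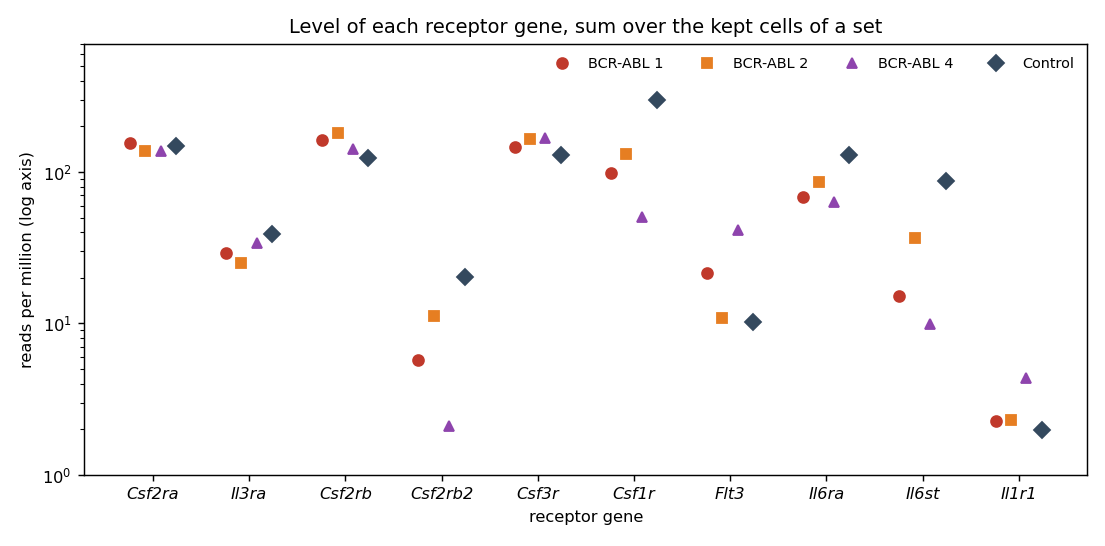
CPM of each receptor gene (log axis) in the sum over the kept cells of BCR-ABL sets 1, 2 and 4 and of the Control set, 1 point per set. Csf1r, Il6ra, Il6st, Il3ra and Csf2rb2 have the Control point above all 3 BCR-ABL points, and Csf2ra has it among them.

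The comparison of BCR-ABL with Control GMPs asks which receptors differ once the oncogene is induced. Csf1r, Il6st and Il6ra stood lower in all 3 BCR-ABL sets, with a mean CPM of 0.31, 0.23 and 0.56 times that of the Control set. Csf2ra differed by less than the spread between BCR-ABL sets, and Csf3r, Csf2rb, Flt3 and Il1r1 stood above Control in all 3 BCR-ABL sets. None of these differences passed the test: edgeR's quasi-likelihood test with Benjamini-Hochberg adjustment called 0 of 20324 genes (0.0%), and all 10 receptors were tested. At an unadjusted p under 0.05, which 3.39% of all genes met on the lower side and 3.79% on the higher side, 3 of the 10 receptors were lower and 0 were higher. DESeq2 called 557 genes (2.74%) and, among the receptors, Csf1r and Il6st. Over all genes, 23.2% had all 3 BCR-ABL sets above Control and 27.8% all 3 below, beside 4 and 5 of the 10 receptors.

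Among the GM-CSF and IL-3 receptor chains, Csf2ra (chromosome 19, 61223957 to 61228429) had 155.5, 136.7 and 137.6 CPM in BCR-ABL sets 1, 2 and 4, against 148.1 CPM in the Control set. The Control value lies among the BCR-ABL values, and the log2 fold change was -0.03 (SE 0.17), a sign that turned when BCR-ABL set 2 or set 4 was left out. Its binding partner Csf2rb had 163.0, 180.4 and 142.8 CPM across the BCR-ABL sets, against 123.8 CPM in the Control set. All 3 BCR-ABL values are higher, with a mean of 162.1 ± 18.8 CPM (SD, n = 3) and a log2 fold change of 0.41 with an SE of 0.20 (adjusted p = 0.77 by edgeR). The IL-3 binding chain Il3ra (chromosome 14, 14346275 to 14356011) stood at 28.96, 25.1 and 33.8 CPM across the BCR-ABL sets, against 39.1 CPM in the Control set, and its log2 fold change was -0.40 (SE 0.23). The second beta chain Csf2rb2 stood at 5.69, 11.2 and 2.11 CPM across the BCR-ABL sets, against 20.3 CPM in the Control set. A single Control cell held 44.8% of the Csf2rb2 reads of its set, and without the top cell of each set the log2 fold change was -1.07 (SE 0.98) in place of -1.65 (SE 0.87).

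The G-CSF receptor Csf3r (chromosome 4, 126024550 to 126044440) had 146.5, 164.6 and 167.0 CPM in BCR-ABL sets 1, 2 and 4, against 128.8 CPM in the Control set. All 3 BCR-ABL sets were higher, at 159.4 ± 11.2 CPM (SD, n = 3), and the log2 fold change was 0.33 (SE 0.15, adjusted p = 0.758 by edgeR).

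Of the receptor tyrosine kinases, Csf1r (chromosome 18, 61100598 to 61132149) had 97.8, 131.5 and 50.6 CPM in BCR-ABL sets 1, 2 and 4, against 296.6 CPM in the Control set. The groups do not overlap, but the BCR-ABL sets themselves span a 2.6-fold range, lowest in set 4. The log2 fold change was -1.64 (SE 0.51), with p = 0.0275 before and 0.662 after adjustment by edgeR, and with an adjusted p of 0.0172 by DESeq2. Exons of Csf1r share 873 bases with Hmgxb3 on the other strand, whose reads cannot be told apart without a strand setting. Flt3 (chromosome 5, 147330741 to 147400489) had 21.4, 10.8 and 41.2 CPM across the BCR-ABL sets, against 10.3 CPM in the Control set. Set 2 was close to Control and set 4 was high, and the log2 fold change of 1.27 (SE 0.81) had an adjusted p of 0.825 by edgeR; without set 4 it was 0.69.

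For the IL-6 receptor, the binding chain Il6ra (chromosome 3, 89864059 to 89913196) had 68.3, 85.5 and 63.1 CPM in BCR-ABL sets 1, 2 and 4, against 129.2 CPM in the Control set. Its BCR-ABL mean was 72.3 ± 11.7 CPM (SD, n = 3). The edgeR log2 fold change of -0.82 (SE 0.22) had p = 0.0175 before and 0.646 after adjustment by edgeR, and an adjusted p of 0.0569 by DESeq2. The signalling chain Il6st (chromosome 13, 112464070 to 112510086) had 15.1, 36.6 and 9.90 CPM across the BCR-ABL sets, against 87.8 CPM in the Control set. Its log2 fold change was -2.07 (SE 0.71), with p = 0.0378 before and 0.669 after adjustment by edgeR, and an adjusted p of 0.0353 by DESeq2. Both chains stood lower in every BCR-ABL set, the signalling chain by more than the binding chain. The IL-1 receptor Il1r1 (chromosome 1, 40225080 to 40317257) was scarce, with 2.26, 2.29 and 4.33 CPM across the BCR-ABL sets, against 1.98 CPM in the Control set. The 5 cells with the most reads held at least 80.7% of its reads in every set, so its log2 fold change of 0.60 (SE 0.63) rests on few cells.

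Csf1r, Il6st, Il6ra and Csf2rb2 shared 1 order of the sets, lowest in BCR-ABL set 4, then set 1, then set 2, and highest in Control. Irf8 had the same order, with 258.5, 421.5 and 62.4 CPM in BCR-ABL sets 1, 2 and 4, against 990.0 CPM in the Control set. Flt3 was highest in BCR-ABL set 4, as was Gfi1, which had 103.0, 83.5 and 160.3 CPM across the BCR-ABL sets, against 41.5 CPM in the Control set. Markers of the monocyte lineage moved with these receptors: all 12 genes of that list, which includes Csf1r and Irf8, had a negative log2 fold change, with summed levels of 5461 to 6868 CPM across the BCR-ABL sets against 9495 CPM in the Control set. So did 7 of 8 early progenitor markers, with 319.0 to 483.0 CPM across the BCR-ABL sets against 733.4 CPM in Control, and 5 of 6 tested dendritic markers, with 112.2 to 124.5 CPM against 171.0 CPM. Most of the early progenitor gap came from Cd34, at 146.0, 180.5 and 157.6 CPM in BCR-ABL sets 1, 2 and 4 against 440.1 CPM in Control. In BCR-ABL set 2, Apoe and Gata2 stood above Control, at 158.2 and 60.1 CPM against 129.9 and 48.2 CPM. The dendritic list and its sums include Flt3, the 1 tested gene of that list with a positive log2 fold change. All 12 tested genes of the 13-gene neutrophil list, Gfi1 among them, had one above 0, with 61640 to 68660 CPM across the BCR-ABL sets against 55820 CPM in the Control set. Single sets did not all follow. Mpo had 29160, 28650 and 31630 CPM in BCR-ABL sets 1, 2 and 4, against 30140 CPM in Control. Ngp was also below Control in sets 1 and 2, and Prtn3 in set 4. The part of all these markers in the receptor differences was not tested. Macrophage markers were scarce, with C1qa and C1qc at 0 reads in all 3 BCR-ABL sets and a summed level of 30.5 to 101.7 CPM across the BCR-ABL sets against 29.7 CPM in the Control set. Of these 7 markers, 6 had a negative log2 fold change. Most of the sum in the BCR-ABL sets came from the other gene, Vcam1, at 26.4, 40.7 and 95.6 CPM against 6.48 CPM in Control.

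Single cells separate the number of cells with a receptor from the reads per such cell. Each cell was thinned to 674952 reads, which left 65, 54 and 81 cells in BCR-ABL sets 1, 2 and 4, and 90 Control cells, and a receptor was called detected at 5 or more thinned reads. The limit falls in a gap for Csf1r: between 5 and 9 reads of Csf1r were seen in 0, 1 and 3 cells of the BCR-ABL sets and in 0 Control cells. Below it, 1 to 4 reads of Csf1r were found in 8, 8 and 9 BCR-ABL cells and in 15 Control cells. Since this method adds no molecular identifiers, the intervals of shares cover counting error only.

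**Figure D2:**
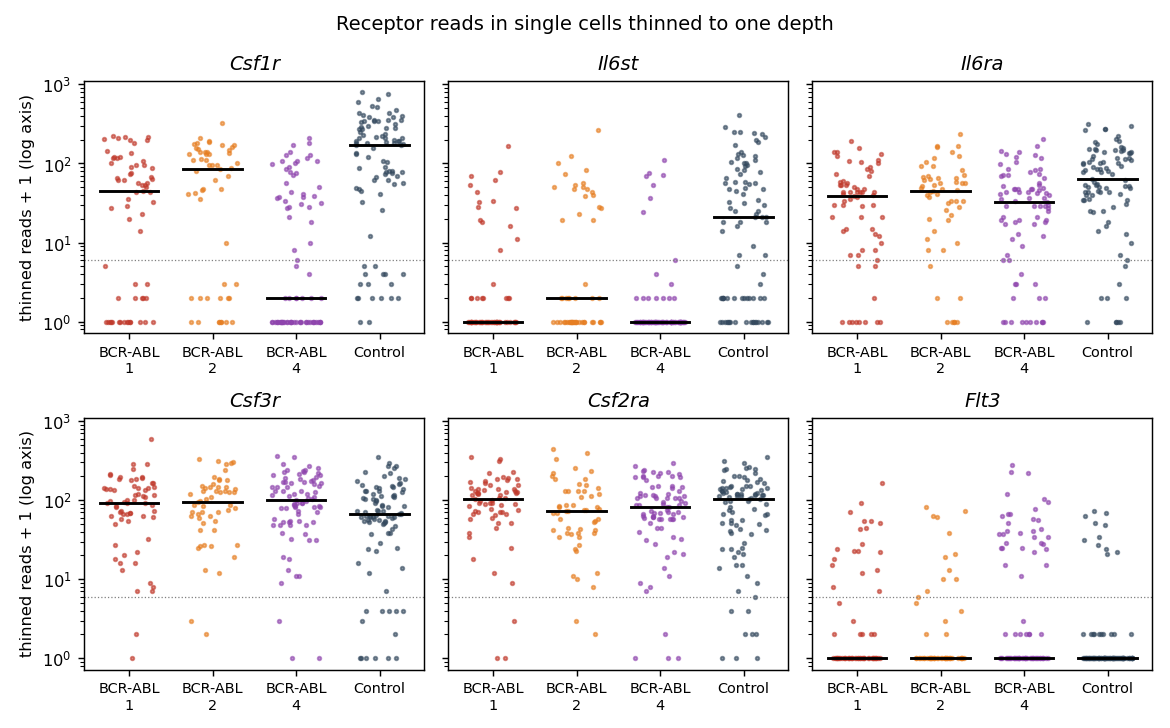
Thinned reads plus 1 (log axis) of 6 receptor genes in each cell of BCR-ABL sets 1, 2 and 4 and of the Control set, 1 point per cell, with the set's median as a bar and the detection limit as a dotted line. Csf1r and Il6st split into cells with under 5 reads and cells with many more, and the median of Csf1r is 44, 85 and 1 read in the BCR-ABL sets against 170 reads in the Control set.

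Csf1r was detected in 64.6%, 70.4% and 44.4% of cells of BCR-ABL sets 1, 2 and 4, against 81.1% of Control cells (exact 95% interval 71.5 to 88.6). In the cells that had it, the median was 73.5, 121 and 53 thinned reads in the BCR-ABL sets, against 193 in the Control set. Both the share and the reads per detected cell were thus lower in every BCR-ABL set. Il6st was detected in 23.1%, 35.2% and 9.9% of the cells in the BCR-ABL sets, against 61.1% of those in Control (50.3 to 71.2), and these intervals do not overlap. Its median in detected cells, 32, 47 and 60.5 thinned reads in the BCR-ABL sets, lay on both sides of the 57 of the Control set. Il6ra showed the other pattern, with 83.1%, 85.2% and 79% of the cells in the BCR-ABL sets against 88.9% of those in Control, and a median in detected cells of 42, 52 and 41.5 thinned reads in the BCR-ABL sets against 80.5 in the Control set.

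Csf3r was detected in 96.9%, 96.3% and 96.3% of the cells in the BCR-ABL sets, against 85.6% of those in Control (76.6 to 92.1). Csf2ra was found in 95.4%, 96.3% and 95.1% of the cells in the BCR-ABL sets against 91.1% of those in Control, and Csf2rb in 89.2%, 94.4% and 91.4% against 86.7%. These intervals overlap between the groups. Il3ra was found in 70.8%, 64.8% and 80.2% of the cells in the BCR-ABL sets, against 74.4% of those in Control, which lies among them, as does the 20.0% of Control cells with Csf2rb2 among 15.4%, 27.8% and 4.9% of BCR-ABL cells. Flt3, in contrast, was found in 29.2%, 22.2% and 39.5% of the cells in the BCR-ABL sets, against 12.2% of those in Control (6.3 to 20.8), with medians of 23, 19 and 38.5 reads in detected BCR-ABL cells against 33 in detected Control cells. Il1r1 was found in 7.7%, 7.4% and 11.1% of the cells in the BCR-ABL sets, against 3.3% of those in Control, or 3 cells. With 3 sets against 1 the smallest p an exact permutation test of a share can give is 0.25, so no p is given. A cell had a median of 6 of the 10 receptors detected in every set, and no cell had all 10.

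**Figure D3:**
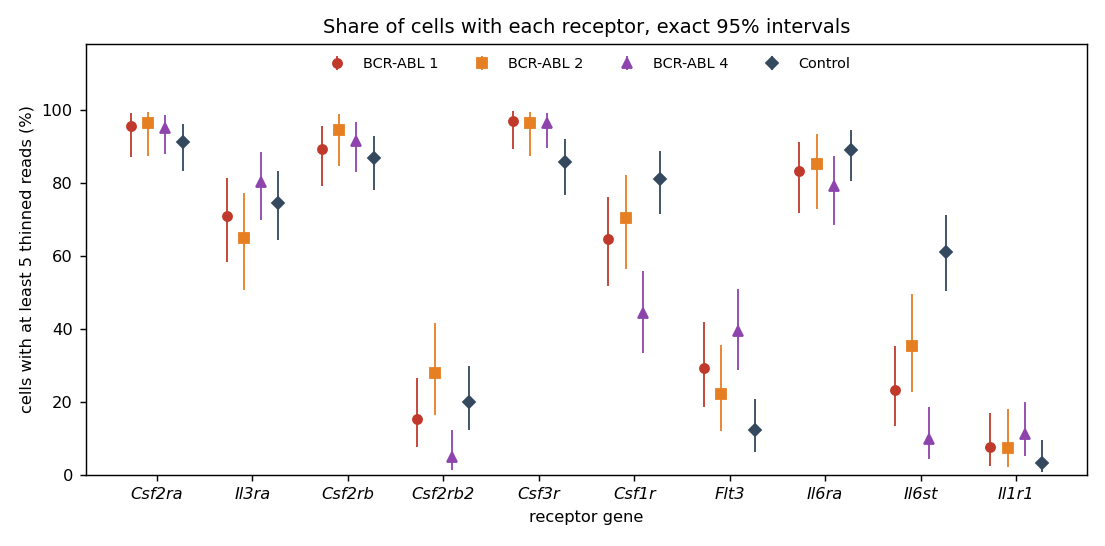
Share of cells with at least 5 thinned reads of each receptor gene, with exact 95% intervals for counting error, in BCR-ABL sets 1, 2 and 4 and in the Control set. Flt3 has all 3 BCR-ABL shares (22.2% to 39.5%) above the Control share (12.2%), and Il6st and Csf1r have the highest share in Control.

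A receptor made of 2 chains needs both in the same cell, so co-detection was counted per set and set beside the product of the shares of its 2 chains. Both chains of the GM-CSF receptor, Csf2ra and Csf2rb, were detected in 86.2%, 90.7% and 86.4% of cells of BCR-ABL sets 1, 2 and 4, against 77.8% of Control cells. The products were 85.1%, 90.9% and 86.8% in the BCR-ABL sets against 79% in the Control set. Both chains of the IL-3 receptor, Il3ra and Csf2rb, were detected in 64.6%, 64.8% and 74.1% of the cells in the BCR-ABL sets, against 65.6% of those in Control. In BCR-ABL set 2 all 35 cells with Il3ra also had Csf2rb. With Csf2rb2 as the partner of Il3ra the shares were 10.8%, 14.8% and 2.5% of the cells in the BCR-ABL sets, against 17.8% of those in Control, and of the cells with Csf2rb2, 100%, 93.3% and 75% in the BCR-ABL sets, against 77.8% in Control, also had Csf2rb. Cells with Csf2rb2 numbered only 10, 15 and 4 in the BCR-ABL sets and 18 in Control, and Csf2rb was detected in 86.7% to 94.4% of all cells per set.

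Transcripts of both IL-6 receptor chains were detected in fewer cells than those of the binding chain Il6ra, and receptor protein was not measured. Il6ra and Il6st were both detected in 21.5%, 35.2% and 8.6% of the cells in the BCR-ABL sets, against 58.9% of those in Control. Il6ra alone was found in 61.5%, 50% and 70.4% of the cells in the BCR-ABL sets, against 30% of those in Control, whereas Il6st alone was found in 1, 0 and 1 BCR-ABL cells and in 2 Control cells. Among cells with Il6ra, 25.9%, 41.3% and 10.9% in the BCR-ABL sets had Il6st, against 66.2% in the Control set. The shares depend on the limit. At 1 thinned read, both were detected in 35.4%, 48.1% and 19.8% of cells of BCR-ABL sets 1, 2 and 4, against 78.9% of Control cells.

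Csf1r and Csf3r mark the monocyte and neutrophil sides. Most cells with Csf1r also had Csf3r: 97.6%, 100% and 97.2% in the BCR-ABL sets, against 86.3% in the Control set. These values are close to the shares of all cells with Csf3r, 96.9%, 96.3% and 96.3% in the BCR-ABL sets against 85.6% in the Control set. Cells with Csf3r but no Csf1r made up 33.8%, 25.9% and 53.1% of the BCR-ABL sets, against 15.6% of the Control set. The reverse, Csf1r without Csf3r, was seen in 1, 0 and 1 BCR-ABL cells, against 10 Control cells, or 11.1%. Over all 11 pairs and 4 sets, the product of the 2 shares lay inside the exact 95% interval of the co-detected share in 44 of 44 cases, which at these cell numbers does not show that the chains are independent. The co-detected share minus the product ran from -3.2 to 5.9 percentage points, and for Csf1r with Flt3 it was 5.7, 1.0 and 5.9 points in BCR-ABL sets 1, 2 and 4, against 0.1 points in the Control set.

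**Figure D4:**
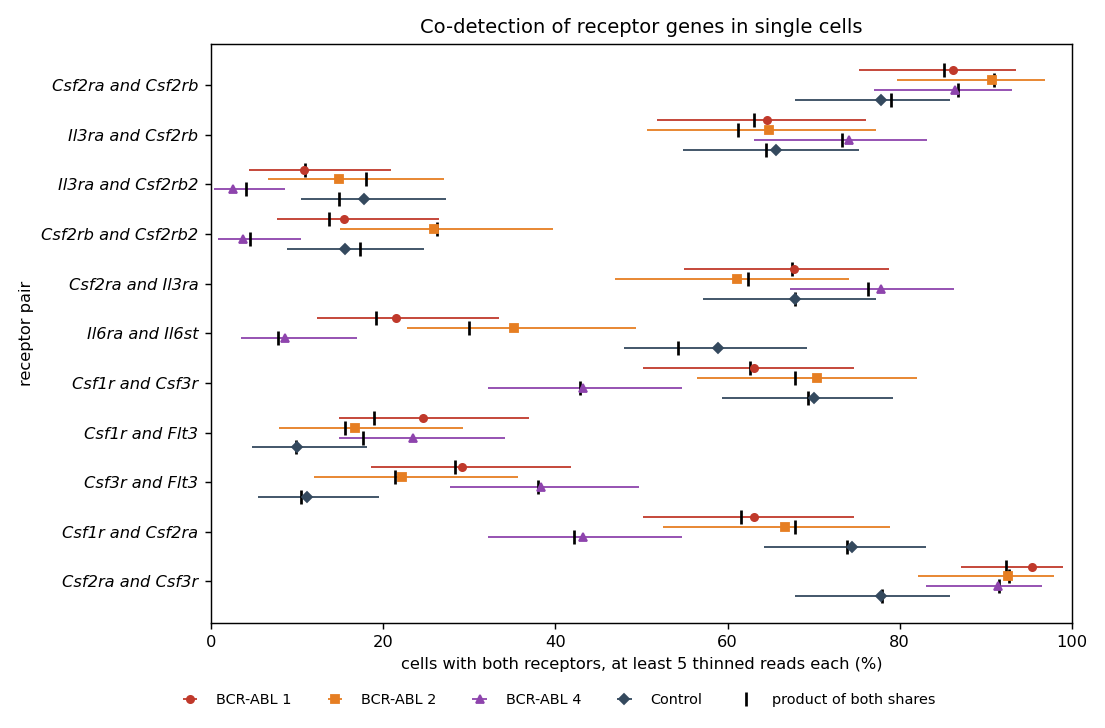
Share of cells with both genes of a pair, at 5 or more thinned reads each, with exact 95% intervals, for 11 pairs in BCR-ABL sets 1, 2 and 4 and in the Control set, and the product of the 2 single shares as a black tick. Every tick lies inside its interval, and the Il6ra and Il6st pair runs from 8.6% in BCR-ABL set 4 to 58.9% in the Control set.

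To relate receptors to fate factors, cells with 10 or more thinned reads of Irf8 or of Gfi1 were called positive for it, a limit that an earlier analysis of these data had used. Cells positive for Irf8 alone numbered 13, 16 and 0 in BCR-ABL sets 1, 2 and 4, against 51 in the Control set. Cells positive for both numbered 14, 20 and 14 in the BCR-ABL sets against 28 in the Control set, those positive for Gfi1 alone 35, 16 and 62 against 7, and those with neither 3, 2 and 5 against 4. Irf8-positive and Irf8-negative cells of the same set were then compared over the 4 sets, with the set as a block. Of 15147 genes, edgeR's adjusted p called 2 (0.0132%), Irf8 itself and the basophil protease gene Prss34, and DESeq2 called 1235 (8.15%). Among the 10 receptors, Csf1r, Il6ra and Il6st were higher and Csf3r was lower at an unadjusted p under 0.05, which 6.9% of all genes met on the higher side and 6.22% on the lower side, and none passed the adjustment. DESeq2 called the same 4 receptors.

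Csf1r stood at 157.8, 163.9 and 88.4 CPM in Irf8-positive cells of BCR-ABL sets 1, 2 and 4 and at 337.6 CPM in those of the Control set, against 44.8, 47.5, 40.5 and 14.1 CPM in the Irf8-negative cells of the same 4 sets. It was higher in Irf8-positive cells of every set, and had a log2 fold change of 2.24 with an SE of 0.61 (p = 0.013, adjusted p = 0.25 by edgeR). Irf8-negative cells were not free of it, since 42.1%, 33.3% and 38.8% of them in the BCR-ABL sets, against 27.3% in Control, had 5 or more reads. Il6st was at 31.3, 46.6 and 22.4 CPM in Irf8-positive cells of the 3 BCR-ABL sets and at 101 CPM in those of Control, against 0.589, 9.09, 6.58 and 0.307 CPM in Irf8-negative cells. The Control value in Irf8-negative cells rests on 5 reads, and the log2 fold change was 4.21 (SE 1.31, adjusted p = 0.295 by edgeR). Il6ra was at 91.8, 96.8, 82.0 and 136.8 CPM in Irf8-positive cells, against 47.1, 49.5, 58.5 and 79.96 CPM in Irf8-negative cells, giving a log2 fold change of 0.81 with an SE of 0.13 (adjusted p = 0.171 by edgeR).

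Csf3r was lower in Irf8-positive cells of all 4 sets, at 96.5, 156.8, 133.6 and 121.5 CPM, against 197.2, 178.9, 177.5 and 171.4 CPM in Irf8-negative cells. Its log2 fold change was -0.52 (SE 0.16, adjusted p = 0.296 by edgeR). The remaining receptors had log2 fold changes between -0.47 for Il3ra and 1.56 for Flt3, with an unadjusted p of 0.165 by edgeR for Il3ra and higher ones for the others. Marker lists differ between these classes too: all 12 monocyte markers, which include Irf8 and Csf1r, had a positive and 10 of 12 tested neutrophil markers a negative log2 fold change in Irf8-positive cells. Markers of basophils and mast cells summed to 81.6, 62.9, 135.8 and 28.1 CPM in Irf8-positive cells of the BCR-ABL sets and Control, against 525.3, 1636, 278.4 and 2838 CPM in Irf8-negative cells. Without the cells that carry markers of other lineages, left out by the rule given with the Irf8-negative class, the log2 fold changes of Csf1r, Il6st, Il6ra and Csf3r were 2.21, 3.97, 0.76 and -0.59.

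**Figure D5:**
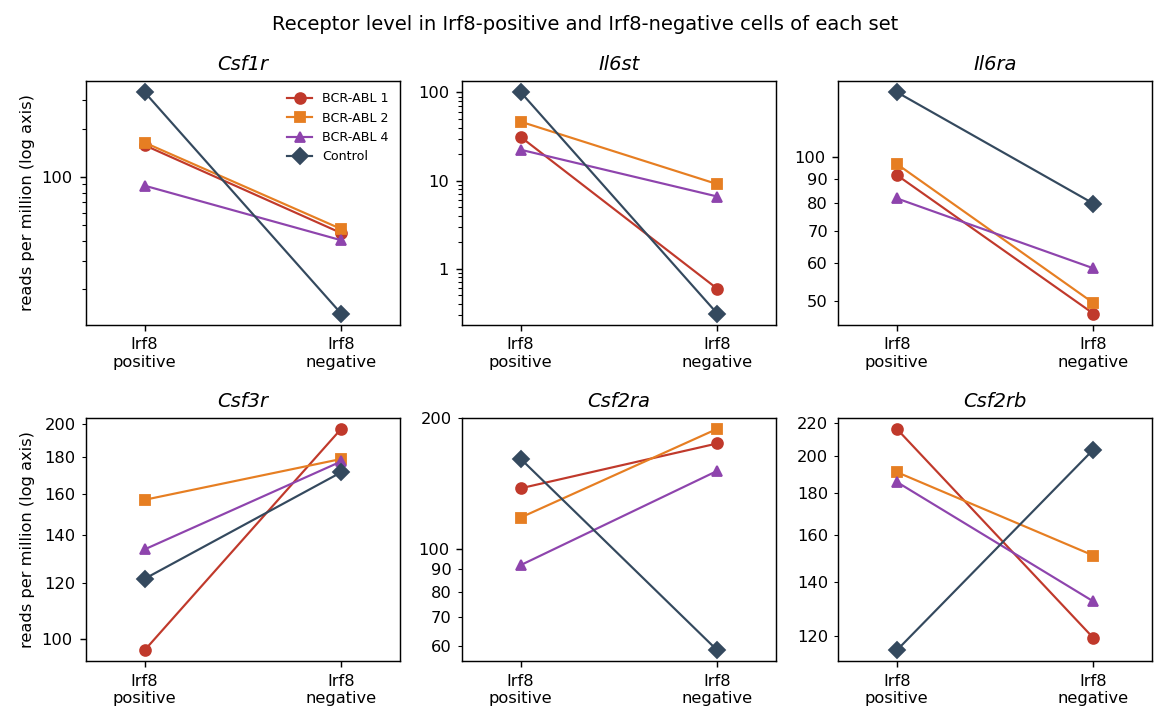
CPM (log axes) of 6 receptor genes in the summed Irf8-positive and Irf8-negative cells of BCR-ABL sets 1, 2 and 4 and of the Control set, 1 line per set. Csf1r, Il6st and Il6ra are higher and Csf3r is lower in the Irf8-positive cells of all 4 sets, while for Csf2ra and Csf2rb the Control line runs against the 3 BCR-ABL lines.

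The promoters of the 3 receptors that met the unadjusted threshold in the Irf8 comparison and have an entry in RefSeq's promoter table are shown from 250 bases before to 50 bases after the gene start in RefSeq (GRCm38.p6), which for Csf3r differs from the GENCODE start given above. Such entries were found for 8 of the 10 receptors. Each was searched on both strands for GAGGAA, a core of sites bound by PU.1 and other Ets factors, for GCAAT, part of a C/EBP site, and for 2 copies of GAAA with 2 bases between them, a tandem site of interferon regulatory factors. None of the 3 motifs contains another. Matches are in capitals, and TTCCTC and ATTGC are matches on the other strand.
Csf3r promoter, chr4:126024409-126024708, plus strand: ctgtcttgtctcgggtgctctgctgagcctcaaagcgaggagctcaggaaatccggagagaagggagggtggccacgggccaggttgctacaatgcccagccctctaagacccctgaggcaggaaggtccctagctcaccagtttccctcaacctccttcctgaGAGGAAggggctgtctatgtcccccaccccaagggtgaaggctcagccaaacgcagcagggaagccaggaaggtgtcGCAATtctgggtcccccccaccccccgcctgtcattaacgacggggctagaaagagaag
Il6ra promoter, chr3:89913147-89913446, minus strand: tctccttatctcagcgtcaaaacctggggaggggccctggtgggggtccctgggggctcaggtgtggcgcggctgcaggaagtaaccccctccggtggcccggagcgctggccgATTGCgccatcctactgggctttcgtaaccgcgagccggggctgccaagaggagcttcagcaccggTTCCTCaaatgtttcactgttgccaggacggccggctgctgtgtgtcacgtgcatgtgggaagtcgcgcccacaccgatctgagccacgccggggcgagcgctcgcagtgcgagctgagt
Il6st promoter, chr13:112463820-112464119, plus strand: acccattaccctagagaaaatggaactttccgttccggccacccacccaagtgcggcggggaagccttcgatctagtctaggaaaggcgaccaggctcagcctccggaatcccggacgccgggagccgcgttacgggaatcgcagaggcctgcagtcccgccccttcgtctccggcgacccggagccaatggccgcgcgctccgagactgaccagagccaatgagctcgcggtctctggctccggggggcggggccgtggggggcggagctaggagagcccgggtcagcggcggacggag
Csf3r and Il6ra each hold 1 match to GAGGAA and 1 to GCAAT, and Il6st holds none of the 3 motifs in this window. Of 32851 promoters in the table, 28.3% hold GAGGAA, 26.4% hold GCAAT and 3.4% hold the tandem GAAA site, so these matches are a description only.

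Gfi1-positive cells were compared with Gfi1-negative cells in the same way. Of 15151 genes, edgeR's adjusted p called 1 (0.0066%), Gfi1 itself, and DESeq2 called 149 (0.983%). Csf3r was higher in Gfi1-positive cells of all 4 sets, at 166.4, 197.9 and 170.3 CPM across the BCR-ABL sets and 143.6 CPM in Control, against 103.0, 100.4, 130.2 and 119.2 CPM in Gfi1-negative cells. The log2 fold change was 0.57 (SE 0.15), with p = 0.0119 before and 0.917 after adjustment by edgeR. Il6st was lower in Gfi1-positive cells of all 4 sets, at 10.03, 19.5, 8.85 and 49.5 CPM, against 29.2, 67.5, 27.7 and 109.2 CPM in Gfi1-negative cells, with a log2 fold change of -1.54 with an SE of 0.18 (adjusted p = 0.917 by edgeR and 3.64e-10 by DESeq2). These were the 2 receptors with an unadjusted p under 0.05, a mark that 3.06% of all genes met on the higher side and 1.99% on the lower side. BCR-ABL set 4 has only 5 Gfi1-negative cells, in which Csf1r rests on 68 reads, and without this set the log2 fold change of Csf1r was -0.55 in place of 0.13.

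Cells with Irf8 alone and cells with Gfi1 alone stand furthest apart, and BCR-ABL set 4, with 0 cells of the first kind, could not enter this comparison. Csf3r was at 80.2 and 109.1 CPM in Irf8-alone cells of BCR-ABL sets 1 and 2 and at 115.6 CPM in those of Control, against 201.8, 204.0 and 194.6 CPM in Gfi1-alone cells, giving a log2 fold change of -1.002 with an SE of 0.17 (adjusted p = 0.306 by edgeR). Csf1r was at 173.4, 177.7 and 369.4 CPM in Irf8-alone cells, against 48.6, 50.98 and 17.4 CPM in Gfi1-alone cells, giving a log2 fold change of 2.60 (SE 0.63). Il6ra and Il6st were also higher, with log2 fold changes of 1.06 (SE 0.29) and 5.46 (SE 1.197). These 3 higher and 1 lower receptor met an unadjusted p under 0.05, as did 5.27% and 5.43% of 13947 genes, and edgeR's adjusted p called 0 genes while DESeq2 called 822. In cells with both factors Csf1r stood between these classes in every set that has them, at 145.8, 152.9 and 270.6 CPM in BCR-ABL sets 1 and 2 and Control.

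Across single cells within a set, Csf1r followed Irf8 most closely of the 10 receptors, with Spearman's rho of 0.66, 0.63 and 0.32 in BCR-ABL sets 1, 2 and 4 and 0.65 in Control, over 65, 54, 81 and 90 cells that share their set and were thinned to the same depth. Il6st (0.48, 0.39, 0.15 and 0.51) and Il6ra (0.25, 0.56, 0.12 and 0.43) had smaller values with Irf8. With Gfi1, Csf3r had the highest mean rho over the 4 sets (0.30), at 0.45, 0.32 and 0.21 in the BCR-ABL sets and 0.22 in Control. These are descriptions over cells of 1 set, not tests.

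The BCR-ABL sets hold fewer Irf8-positive cells, so receptors were also compared between groups inside each class. Within Irf8-positive cells, of which the BCR-ABL sets have 27, 36 and 14 and the Control set 79, Csf1r, Il6ra and Il6st still stood lower in BCR-ABL, with log2 fold changes of -1.27 (SE 0.39), -0.57 (SE 0.19) and -1.56 (SE 0.43). Csf2rb stood higher, at 216.4, 191.3 and 186.0 CPM across the BCR-ABL sets against 115.1 CPM in the Control set, giving a log2 fold change of 0.81 with an SE of 0.19 (p = 0.00937, adjusted p = 0.901 by edgeR). These 4 receptors had an unadjusted p under 0.05, as did 2.49% of 18024 genes on the higher side and 2.73% on the lower side. No gene passed edgeR's adjusted p here, and DESeq2 called 253, with Csf2rb, Csf1r and Il6st among them. Irf8 itself differed inside the class, with 546.5, 571.4 and 277.9 CPM in BCR-ABL against 1139 CPM in Control, and its part in the receptor differences was not tested.

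Within Irf8-negative cells the Control set has 11 cells, 5 of which carry markers of other lineages. Csf2ra stood at 174.7, 188.7 and 151.2 CPM across the BCR-ABL sets, against 58.7 CPM in the Control set, giving a log2 fold change of 1.58 with an SE of 0.22 (adjusted p = 0.115 by edgeR). Csf1r had 44.8, 47.5 and 40.5 CPM in BCR-ABL against 14.1 CPM in Control, giving a log2 fold change of 1.68 with an SE of 0.29 (adjusted p = 0.121 by edgeR), the opposite direction to that in Irf8-positive cells. Flt3 had 12.5, 12.5 and 35.4 CPM across the BCR-ABL sets and 1 read in the Control cells, for which no fold is given. Il3ra, Csf2rb, Il6ra and Csf2rb2 stood lower, with Csf2rb2 at 4.25, 3.99 and 1.02 CPM in BCR-ABL against 87.3 CPM in Control. Besides Flt3, whose fit rests on that read, these 2 higher and 4 lower receptors met an unadjusted p under 0.05, which 12.6% and 7.21% of 17367 genes also did, edgeR's adjusted p called 0 genes and DESeq2 called 2590. Over all genes the median log2 fold change in this class was 0.27, so values are to be read relative to that shift.

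Cells with at least 500 thinned reads summed over markers of basophils and mast cells, eosinophils, megakaryocytes and erythroid cells numbered 3, 6 and 8 in BCR-ABL sets 1, 2 and 4 and 5 in Control, and were left out as an alternative chosen after seeing the data. Within the Irf8-negative class, this turned the log2 fold changes of Il3ra, Csf2rb and Csf2rb2 to 0.55 (SE 0.41), 0.87 (SE 0.23) and 2.80 (SE 1.297), while those of Csf2ra and Csf1r were 1.96 (SE 0.35) and 1.55 (SE 0.33). The 5 Control cells held 39.6% of that set's thinned Csf2rb2 reads. Il3ra was higher in these cells than in the remaining cells of each set, at 56.3, 47.4 and 48.9 CPM against 30.3, 21.5 and 32.5 CPM across the BCR-ABL sets and at 98.7 against 32.7 CPM in Control. Basophils and mast cells are known to respond to IL-3. In the comparison of all cells the direction of none of the 10 receptors turned without these cells, and Csf2rb2 had giving a log2 fold change of -0.73 (SE 0.92) there.

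The difference of the Irf8 effect between the groups was tested as an interaction. Csf2ra and Csf1r had a smaller ratio of Irf8-positive to Irf8-negative cells in BCR-ABL than in Control and Csf2rb and Csf2rb2 a larger one at an unadjusted p under 0.05, a mark that 8.61% of 19374 genes met on the lower and 4.22% on the higher side, and the median over all genes was -0.28. The fitted value of Flt3 rests on 1 Control read and is not given. Without the cells that carry markers of other lineages, the interactions of Csf2rb and Csf2rb2 turned, to -0.08 and -3.19 in place of 1.39 and 4.50. No gene passed edgeR's adjusted p and DESeq2 called 1467. Csf2ra was lower in Irf8-positive than in Irf8-negative cells of the BCR-ABL sets (137.9 against 174.7, 118.2 against 188.7 and 91.96 against 151.2 CPM) and higher in Control (161.1 against 58.7 CPM), with an interaction of -2.04 (SE 0.24, adjusted p = 0.212 by edgeR). For Csf1r, higher in Irf8-positive cells of all sets, the interaction was -3.00 (SE 0.38, adjusted p = 0.212 by edgeR). The Control arm of this comparison rests on the same 11 Irf8-negative cells.

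The cells with Flt3 were looked at for what else they hold. They numbered 19, 12 and 32 in BCR-ABL sets 1, 2 and 4 and 11 in Control. Flt3 was detected in 14 of 27, 9 of 36 and 10 of 14 Irf8-positive cells of the BCR-ABL sets, against 5 of 38, 3 of 18 and 22 of 67 Irf8-negative cells, and in Control 11 of 79 Irf8-positive cells had it, against 0 of 11 Irf8-negative cells, which allows a share of up to 28.5% (exact 95% upper bound). Early progenitor markers summed to 312.5, 647.2 and 357.2 CPM in Flt3 cells of the BCR-ABL sets and 772.3 CPM in those of Control, against 406.7, 483.0, 221.2 and 735.7 CPM in cells without Flt3, so their order was not the same in all sets. Of this list, Cd34, a progenitor surface gene, averaged 178.0, 301.6 and 189.2 CPM in Flt3 cells of the BCR-ABL sets and 555.5 CPM in those of Control, against 136.8, 145.1, 88.6 and 416.2 CPM in cells without Flt3. Cd34 is 1 of 8 genes of the list, and it does not stand for the rest. In BCR-ABL set 1 the sum of the list went the other way. Elane, the neutrophil elastase gene, averaged 12790, 11090, 17100 and 13690 CPM in Flt3 cells, against 21390, 19230, 22630 and 13350 CPM in cells without Flt3, lower in the 3 BCR-ABL sets and not in Control. Dendritic markers other than Flt3 summed to 101.8, 140.9, 86.9 and 175.0 CPM in Flt3 cells, against 80.8, 106.8, 79.7 and 150.9 CPM in the other cells. Lymphoid markers summed to 1025, 974.8, 1294 and 1375 CPM in Flt3 cells, against 1566, 1513, 1616 and 1434 CPM in the other cells.

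For the 8 receptors detected in at least 25% of thinned cells, the genes with the most similar pattern across cells were taken, by the mean over the 4 sets of Spearman's rho within a set, out of 8983 genes. Closest to Csf1r were Irf8 (mean rho 0.57), the coagulation factor gene F13a1 (0.46) and Emb (0.46), and F13a1 also led for Il6ra (0.41), followed by Unc93b1 (0.39) and Soat1 (0.38). Csf2ra had the neutrophil granule gene Fcnb (0.45), the complement gene C3 (0.44) and the glutathione reductase gene Gsr (0.42), and Csf3r had Elane (0.34), Clec4a2 (0.32) and Sun2 (0.32). Flt3 had Phgdh, an enzyme of serine synthesis (0.40), the nucleolar gene Ncl (0.38) and the chaperonin gene Cct8 (0.37). Il6st had Erp29 (0.40), Tspo (0.39) and Ifitm3 (0.38), Csf2rb had Milr1 (0.28), Ms4a6c (0.26) and Esyt1 (0.26), and Il3ra had Aspscr1, Pcp4l1 and Sox4 (0.23 each), which is weak in sparse counts. Between receptors, the mean rho was highest for Csf1r with Il6st (0.29) and with Il6ra (0.26), and for Csf2ra with Csf3r (0.21).

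Other parts of the cytokine pathway were counted in BCR-ABL against Control over all cells, where the median log2 fold change of all genes tested was 0.05. Of 29 further cytokine receptors 26 were tested, and 5 were higher and 2 lower by an unadjusted p below 0.05 (median log2 fold change 0.15), where 3.79% and 3.39% of all genes tested were. The decoy IL-1 receptor Il1r2 had 6.46, 4.31 and 10.4 CPM in BCR-ABL sets 1, 2 and 4, against 0.272 CPM in the Control set, giving a log2 fold change of 4.71 with an SE of 0.81 (adjusted p = 0.594 by edgeR and 5.32e-09 by DESeq2). The common gamma chain Il2rg and its partner Il4ra stood at 35.9 ± 2.08 and 60.6 ± 6.71 CPM in BCR-ABL (SD, n = 3), against 20.5 and 33.6 CPM in Control. The type I interferon receptor chain Ifnar2 stood at 131.5 ± 10.8 CPM in BCR-ABL (SD, n = 3), against 221.1 CPM in Control, with a log2 fold change of -0.73 (SE 0.16). DESeq2 called these 4.

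Of 25 tested genes of JAK-STAT and receptor-proximal signalling, 1 was higher and 1 lower by an unadjusted p below 0.05 (median -0.05), near the share of all genes. Stat3, the main mediator of G-CSF and IL-6 receptor signals, stood at 163.0 ± 35.1 CPM in BCR-ABL (SD, n = 3), against 96.2 CPM in Control. The kinase genes Jak2 and Lyn showed log2 fold changes of -0.40 (SE 0.18) and -0.47 (SE 0.26). Of 20 tested negative regulators 1 was higher and 1 lower at that mark (median -0.15), again near the share of all genes. Socs6, an adaptor that limits receptor kinases, stood at 19.3 ± 1.69 CPM in BCR-ABL (SD, n = 3), against 39.99 CPM in Control, while Socs7, Adam17 and Socs4 had log2 fold changes of -0.55, -0.27 and -0.30 with unadjusted p of 0.17 or more. Of 12 ligands of these receptors 5 were tested, none with an unadjusted p under 0.05. No gene of the 4 lists passed edgeR's adjusted p.

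Between Irf8-positive and Irf8-negative cells, Il4ra had a positive log2 fold change, 1.31 (SE 0.21), and the stem cell factor receptor Kit a negative one, -0.53 (SE 0.13), at adjusted p of 0.171 and 0.228 by edgeR. The adaptor gene Gab2 had a log2 fold change of -0.65 (SE 0.18). The phosphatase gene Ptpn6 and the ubiquitin ligase gene Cblb had 0.48 (SE 0.11) and -0.94 (SE 0.32). In this comparison 2 receptors were higher and 2 lower among 20 tested, 1 was higher and 4 lower among 25 signalling genes, and 1 was higher and 2 lower among 19 negative regulators, all at an unadjusted p under 0.05, which 6.9% and 6.22% of all genes met, and with 0 past the adjusted one.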

How the data were processed

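Single GMPs from 4 sets of 96 wells were sequenced with SMART-seq2. The authors deposited counts of reads per gene and well, made with GSNAP and HTSeq 0.5.3p3 on mm10, per the submitters' processing notes; annotation and strand setting: not given in the sources used here. Reads not assigned to genes (55.1%) were left out, as were wells under 50000 gene reads or 1000 genes. Counts were summed per set, or per set and class, and tested with edgeR 4.0.16 (quasi-likelihood, TMM, filterByExpr, Benjamini-Hochberg threshold 0.05), with the set as a block between classes. For shares and classes, cells were thinned to 674952 reads, the 10th percentile, with seed 1. Intervals are exact 95% Clopper-Pearson. The scripts were tested on simulated data with a smaller spread between sums than these fits had. That run therefore does not show how many true differences the fits would miss. Alternatives were DESeq2 1.42.0, limma 3.58.1, no filter, stricter wells, thinned sums, other limits, no block, and leaving out sets or cells.

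Members, lists and limits were chosen with earlier results of these data known. Named genes are the 10 receptors, Irf8 and Gfi1, up to 4 genes per pathway list by smallest p between BCR-ABL and Control and up to 2 between Irf8 classes, and the 3 genes most like each receptor detected in at least 25% of cells. Prss34 was named after its value was seen, as were marker genes. Some genes that this rule selects are not reported here.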

Additional observations from a re-analysis of the deposited data

Results flagged for a closer look

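For 3 receptors the BCR-ABL sets and the Control set moved in opposite directions between Irf8-positive and Irf8-negative cells, and the difference of the log2 ratios, BCR-ABL minus Control, was tested as an interaction. It was -2.04 for Csf2ra, 1.39 for Csf2rb and 4.50 for Csf2rb2, with adjusted p of 0.212, 0.25 and 0.25 by edgeR, none past the threshold. Without the cells that carry markers of other lineages, it was -2.41 for Csf2ra, -0.08 for Csf2rb and -3.19 for Csf2rb2.

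Between Gfi1-positive and Gfi1-negative cells, all 3 BCR-ABL sets had a log2 ratio of one sign and the Control set the other for Csf2ra, Il3ra and Flt3. The mean log2 ratio of the BCR-ABL sets minus that of Control was 0.62 for Csf2ra, 0.63 for Il3ra and -1.74 for Flt3. These 3 differences were not tested.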

How the results depend on the processing

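Between BCR-ABL and Control 0 genes were called under every alternative tried but DESeq2, which called 557. DESeq2 called 1235 genes between Irf8 classes, 149 between Gfi1 classes, 822 between Irf8-alone and Gfi1-alone cells, 253 and 2590 within Irf8-positive and Irf8-negative cells, and 1467 for the interaction. For the Irf8 classes edgeR called 4 genes with no filter, 1 with thinned sums, 1 with no replicate block, 1 without other-lineage cells and 1 to 2 leaving out each set. For the Gfi1 classes it called 2 with no filter, 0 at a class limit of 20 reads and 0 to 1 leaving out each set. For Irf8-alone against Gfi1-alone cells it called 1 at limits of 5 and of 20 reads. No paired analysis was possible: BCR-ABL and Control share only replicate number 1, and no label says that a shared number marks a pair. The causes were not tested.

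These log2 fold changes turned. Over all cells Csf2ra was 0.038 with thinned sums and -0.103 to 0.012 leaving out each set. Between Irf8 classes Csf2ra was -0.557 to 0.135 leaving out each set, Csf2rb2 was -1.331 with no replicate block, and Il1r1 was 1.364 at a limit of 5 reads, 0.007 without other-lineage cells and -1.213 to 0.290 leaving out each set. Between Gfi1 classes Csf2rb2 was 0.028 without other-lineage cells and -0.985 to 0.298 leaving out each set. Csf1r there was -0.076 with thinned sums, -0.564 and -0.176 at limits of 5 and 20 reads, -0.394 with no replicate block and -0.554 to 0.444 leaving out each set. Il1r1 was 1.118 between Irf8-alone and Gfi1-alone cells and 10.491 within Irf8-negative cells at a limit of 5 reads, with an interaction of -9.882; the Control arm there is 8 cells with no read of Il1r1, so both are fitted values and no bound. Without other-lineage cells, Il3ra, Csf2rb and Csf2rb2 were 0.545, 0.872 and 2.797 within Irf8-negative cells, and the interactions of Il3ra, Csf2rb, Csf2rb2 and Il6ra were -0.870, -0.078, -3.195 and -0.290.
Leaving out each set, Csf3r was -0.058 to 0.276 within Irf8-positive cells, and the interactions of Csf3r and Il6ra were -0.238 to 0.185 and -0.063 to 0.192; that of Csf3r was 0.004 by DESeq2. Of the alternative values, 35 turned. Il1r1 had 276 to 611 reads per set. Shares of cells also moved with the detection limit and with thinning. The BCR-ABL mean share minus that of Control was -2.9 to 4.8 percentage points for Csf2ra in place of 4.5. It was -1.4 to 6.0 for Csf2rb in place of 5.0, -9.2 to -6.3 for Il3ra in place of -2.5, and -23.6 to -4.1 for Csf2rb2 in place of -4.0.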

Other observations

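In cells that carried markers of other lineages, of which 20 of 22 were Irf8-negative, Il6st was detected in 0 of 3, 0 of 6 and 0 of 8 cells of BCR-ABL sets 1, 2 and 4, and in 0 of 5 of the Control set. In all Irf8-negative cells the shares with Il6st were 5.3%, 16.7% and 6.0% in the BCR-ABL sets and 0.0% in Control. Csf2rb, the shared beta chain, was detected in 2 of 3, 6 of 6 and 8 of 8 cells with such markers in the BCR-ABL sets, and in 5 of 5 in the Control set.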
